A study of Odorrana tormota with 4 samples.

Results

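Genes that mark microglia and macrophages were examined in the brain transcriptome of *Odorrana tormota*, the concave-eared torrent frog, in female pools against male pools. The set comprised 10 gene symbols (i.e., *CSF1R*, *C1QA*, *C1QB*, *C1QC*, *AIF1*, *CTSS*, *CX3CR1*, *P2RY12*, *TYROBP* and *ITGAM*), and a unigene (an assembled transcript sequence) was a member when the gene name of its best Swiss-Prot match was among them. This rule found 17 of the 197684 unigenes, and they carried 9 of the 10 symbols. No unigene was named *CX3CR1* in either protein database. None of the 17 had a *Gallus* or *Meleagris* match in NR (the non-redundant protein database), and none was closer to a mouse protein than to its NR match, so that no unigene had to be dropped or reported apart for these reasons. Brain tissue of adult frogs collected in the wild was used, and the labels name no treatment. The female pools F1 and F2 were each made from equal amounts of RNA of 2 frogs, and the male pools M1 and M2 from equal amounts of RNA of 4 frogs. Sex and the number of frogs per pool therefore cannot be told apart, and the only measure of spread is that between the 2 pools of a sex.

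Microglia are the resident macrophages of the brain. They depend on signals through the receptor *CSF1R*, sense ATP released by damaged cells through *P2RY12* and the neuronal chemokine fractalkine through *CX3CR1*, and pass signals of several surface receptors inward through the adaptor *TYROBP*. They are a main source in the mammalian brain of C1q, the starter molecule of the classical complement pathway, which is built from the chains *C1QA*, *C1QB* and *C1QC* and tags debris and synapses for uptake. *ITGAM* is the alpha chain of complement receptor 3, *CTSS* a lysosomal cysteine protease that prepares class II antigen presentation, and *AIF1* (also called IBA1) a calcium-binding, actin-associated protein that is widely used to stain microglia in mammals. Most of these roles are known from mouse and human.

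The values were FPKM, i.e., fragment numbers scaled to the length of the unigene and the size of the library, as deposited, so that levels of different unigenes can be set side by side. Read counts were not used here, the depth behind a single FPKM value is unknown and no counting error can be given. The FPKM of the unigenes of a gene were summed in each pool. Such a sum also depends on how many unigenes a gene was assembled into, so that ranks of abundance among genes are approximate. This number was 6 for *CTSS*, 3 for *ITGAM*, 2 for *TYROBP* and 1 for each other member with a unigene. The sexes were compared with limma on log2(FPKM + 0.5) over 49512 features with at least 1 FPKM in at least 2 pools, where a feature is a summed gene or a unigene outside the sums, and p-values were adjusted over all of them by the Benjamini-Hochberg method. Differences are female minus male on this log2 scale. The FPKM values of a pool summed to between 669260 and 717478, and 50442 to 56505 unigenes reached 1 FPKM in a pool. The pools were not alike in tissues that adjoin the brain. Pituitary hormone genes summed to 84.7 FPKM in F1 and 6683 FPKM in F2, against 1610 FPKM in M1 and 1087 FPKM in M2, and skeletal muscle genes to 4.15 and 457 FPKM, against 10.3 and 24.2 FPKM.

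No member passed the test between the sexes. Of the 9 symbols with a unigene, 8 were expressed above the filter, all at modest levels of between 2.07 and 22.2 FPKM in any pool, and *AIF1* was below it. limma called 0 of the 8 members at an adjusted p under 0.05, and 0 of all 49512 features (0%). Without a trend in the spread, limma called 1084 features and 0 members. At an unadjusted p under 0.05, *CSF1R* alone among the 8 was higher in females and none was higher in males, where 4.11% of all features were higher in females and 7.77% higher in males. Of the 11893 features with a gene symbol, limma placed 435 higher in females and 671 higher in males at this threshold. None of the 8 was over 2-fold apart by the ratio of the sex means of FPKM + 0.5. This was passed by 3.33% of all features on the female side and 6.67% on the male side. Among the 11893 features with a gene symbol, 189 passed it on the female side and 496 on the male side. *CSF1R* and *C1QA* had no overlap between the sexes and were higher in females (2 of 8, against 18.5% of all features and 23.2% of the 11893 features with a gene symbol). None had no overlap and was higher in males, which held for 23.3% of all features and 21.1% of those with a symbol. Unigenes with a *Gallus* or *Meleagris* match were kept out of the sums but could enter all features. Of these 5596, 93.8% were above 0 in M2 and 89.1% in M1, but 2.84% in F2 and 2.75% in F1. The 1010 closer to a mouse protein leaned to females (79.6% in F1 and 74.8% in F2, but 44.9% in M2 and 38.6% in M1). The part of either kind in the shares of all features was not tested. The median difference of the 8 was 0.10, and that of all features was -0.02.

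**Figure D1:**
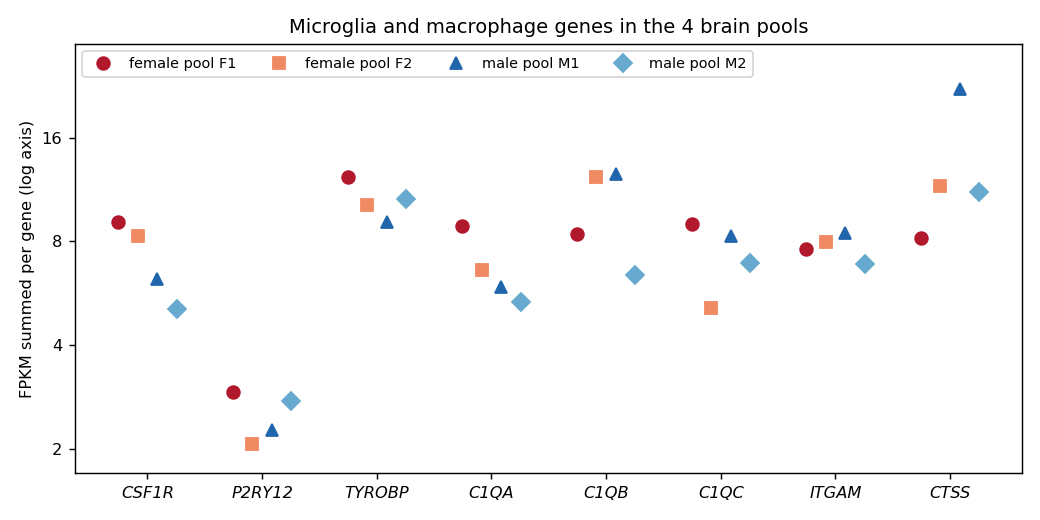
FPKM summed per gene (vertical log axis) of the 8 members above the filter in each brain pool, with female pools F1 and F2 in red and orange and male pools M1 and M2 in dark and light blue. *CSF1R* and *C1QA* are the genes for which both female points lie above both male points, and *CTSS* has the widest span, from 8.20 FPKM in F1 to 22.2 FPKM in M1.

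*CSF1R*, the receptor tyrosine kinase for the growth factors CSF1 and IL34, was the member that differed most clearly from its spread within a sex. Its level was 9.11 and 8.31 FPKM in female pools F1 and F2, against 6.21 and 5.09 FPKM in male pools M1 and M2. Both female pools were the highest, and the groups did not overlap. The difference was 0.59 (SE 0.18, unadjusted p = 0.0304, adjusted p = 0.354 in limma), while F1 and F2 were 0.13 apart and M1 and M2 0.26 apart on the same log2 scale. Its unigene (comp244892_c0_seq2) was 7385 bp long and best matched the *Xenopus tropicalis* receptor. In bulk tissue, fewer cells of a type and less RNA per cell cannot be told apart.

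The purinergic receptor *P2RY12* was the least abundant member above the filter. It stood at 2.92 and 2.07 FPKM in female pools F1 and F2, against 2.27 and 2.76 FPKM in male pools M1 and M2. The groups overlapped, with F1 the highest and F2 the lowest pool. The difference was -0.02 (SE 0.28, adjusted p = 0.996 in limma), and it was 0.19 without F2 and 0.10 without M2. The ratio of *CSF1R* to *P2RY12* was 3.12 and 4.02 in female pools F1 and F2, against 2.74 and 1.85 in male pools M1 and M2, so that the receptors did not keep a fixed proportion across the pools.

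*TYROBP*, the adaptor through which receptors such as TREM2 signal, was among the most abundant members and had a small spread. Its sum was 12.3 and 10.2 FPKM in female pools F1 and F2, against 9.11 and 10.6 FPKM in male pools M1 and M2. F1 was the highest and M1 the lowest pool, and F2 and M2 lay close together between them. The difference was 0.18 (SE 0.18, adjusted p = 0.773 in limma), and it was 0.046 without F1, 0.073 without M1, 0.31 without F2 and 0.28 without M2. The frog-matched unigene (comp234060_c3_seq2, 2186 bp, best NR match *Xenopus laevis*) held 94.0% of the sum in F1, 98.1% in F2 and 100% in both male pools. The rest came from a short unigene described below.

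The 3 chains of C1q were expressed at like levels but did not vary together. *C1QA* stood at 8.87 and 6.59 FPKM in female pools F1 and F2, against 5.91 and 5.33 FPKM in male pools M1 and M2. Both female pools were above both male pools, but F2 and M1 were close. The difference was 0.41 (SE 0.21, adjusted p = 0.551 in limma), about the size of the gap of 0.40 between F1 and F2, and it was 0.21 without F1 and 0.61 without F2. *C1QB* stood at 8.41 and 12.4 FPKM in female pools F1 and F2, against 12.6 and 6.37 FPKM in male pools M1 and M2. Here a pool of each sex was high and the other low. The difference was 0.18 (SE 0.40, adjusted p = 0.914 in limma), smaller than the gap of 0.93 between M1 and M2, and it was -0.088 without F2 and -0.29 without M2. *C1QC* stood at 8.99 and 5.13 FPKM in female pools F1 and F2, against 8.31 and 6.94 FPKM in male pools M1 and M2. Its highest and lowest values were both in female pools, 0.75 apart. The difference was -0.15 (SE 0.31, adjusted p = 0.908 in limma), and it was 0.23 without F2. The ratio of *C1QB* to *C1QA* was 0.949 in F1 and 1.87 in F2, against 2.12 in M1 and 1.20 in M2, and that of *C1QB* to *C1QC* was 0.936 and 2.41, against 1.51 and 0.918. The C1q protein contains the chains in equal numbers, but the proportion of *C1QB* to either other transcript differed over 2-fold between pools. Each chain was held by a single unigene of 1020 to 1552 bp. The best NR match of the *C1QA* unigene was an alligator protein with an E-value of 1e-35, and its Swiss-Prot match was a bovine protein at 2e-38. The *C1QB* unigene best matched *Xenopus laevis*, and that of *C1QC* an Amazon parrot.

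**Figure D2:**
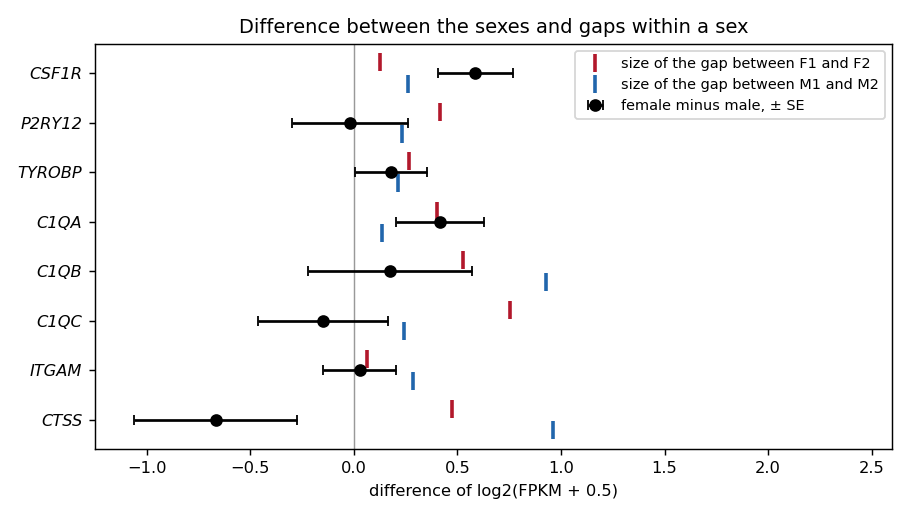
Female minus male difference of log2(FPKM + 0.5) of each member (black points, bars ± SE from limma, n = 2 pools per sex), with the size of the gap between F1 and F2 (red ticks) and between M1 and M2 (blue ticks). *CSF1R* (0.59) and *C1QA* (0.41) lie at or beyond both ticks, whereas the other members have a tick farther from 0 than their difference.

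A difference between the sexes larger than both gaps within a sex was found for 2 of the 8 members (*CSF1R* and *C1QA*), both higher in females. Over all features 12.9% met this on the female side and 17.4% on the male side, so the count for the members was read as a description only.

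*ITGAM* had the smallest ratio of the highest to the lowest pool among the 8 sums (1.23). Its sum was 7.62 and 7.98 FPKM in female pools F1 and F2, against 8.48 and 6.88 FPKM in male pools M1 and M2. The difference was 0.03 (SE 0.18, adjusted p = 0.979 in limma), and it was -0.0038 without F2 and -0.11 without M2. This even sum was made of 3 unigenes that did not share an order of pools. The longest (comp245336_c0_seq1, 4121 bp, NR match integrin alpha-M-like) stood at 5.02 and 1.83 FPKM in female pools F1 and F2, against 2.56 and 3.90 FPKM in male pools M1 and M2. It was highest in F1 and lowest in F2. The unigene comp225845_c1_seq1 (1718 bp, NR match integrin alpha-D) stood at 1.12 and 2.48 FPKM in female pools F1 and F2, against 2.39 and 1.59 FPKM in male pools M1 and M2. The neighbouring unigene comp225845_c2_seq1 (883 bp, NR match integrin alpha-D) followed it, with 1.47 and 3.67 FPKM, against 3.53 and 1.39 FPKM. Both of these were highest in F2 and M1. The alpha-M-like unigene was 4.47 times the 1718 bp unigene in F1 and 0.738 times in F2, against 1.07 times in M1 and 2.46 times in M2. Integrin alpha-D, alpha-M and alpha-X are close relatives, and which of them the unigenes of comp225845 encode is uncertain. In the fit of single unigenes, the 3 had differences of -0.16 to 0.05 and adjusted p-values of 0.930 to 0.997 (limma).

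By its sum over 6 unigenes, *CTSS* was the most abundant member and the most uneven. Its main unigene alone had a mean of 6.84 FPKM over the 4 pools, below the main unigene of *TYROBP* (10.3 FPKM) and that of *C1QB* (9.92 FPKM). It was also below the unigenes of *C1QC* (7.34 FPKM) and *CSF1R* (7.18 FPKM). The *CTSS* sum was 8.20 and 11.6 FPKM in female pools F1 and F2, against 22.2 and 11.2 FPKM in male pools M1 and M2. M1 was the highest and F1 the lowest pool, and F2 and M2 were alike. The difference was -0.67 (SE 0.39, adjusted p = 0.601 in limma), with -0.43 without F1, -0.19 without M1 and -1.15 without M2. Of its 6 unigenes, 4 best matched *Xenopus tropicalis* in NR. The main one (comp226943_c1_seq1, 1582 bp, *X. tropicalis* cathepsin S) stood at 3.26 and 7.04 FPKM in female pools F1 and F2, against 12.4 and 4.65 FPKM in male pools M1 and M2. M1 was high for it, and the sexes overlapped. A pair of unigenes whose NR match was a frog protein named ervatamin-C-like was higher in both male pools. The first (comp202263_c2_seq1, 462 bp) stood at 1.01 and 2.88 FPKM in female pools F1 and F2, against 7.26 and 4.34 FPKM in male pools M1 and M2. Its difference was -1.44 (SE 0.51, unadjusted p = 0.0485, adjusted p = 0.409 in limma). The second (comp221532_c0_seq1, 1647 bp) stood at 0.220 and 0.906 FPKM, against 1.63 and 1.83 FPKM, and was lower in females by limma's estimate of -1.15 (SE 0.43, adjusted p = 0.426). Of the 12 member unigenes tested singly, this pair was over 2-fold higher in males, and none was over 2-fold higher in females, against 6.71% and 3.32% of all 51457 unigenes tested. At an unadjusted p under 0.05, 1 of the 12 was higher in females (that of *CSF1R*) and 1 higher in males, against 4.21% and 7.91% of all. Without overlap between the sexes, 2 were higher in females and 2 in males, against 19.2% and 22.8% of all. Ervatamin-C is a plant protease of the same papain family, and whether this pair is cathepsin S or a related cathepsin of the frog is uncertain. The fourth (comp208469_c0_seq1, 1270 bp) reached at most 0.951 FPKM in any pool and was below the filter.

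**Figure D3:**
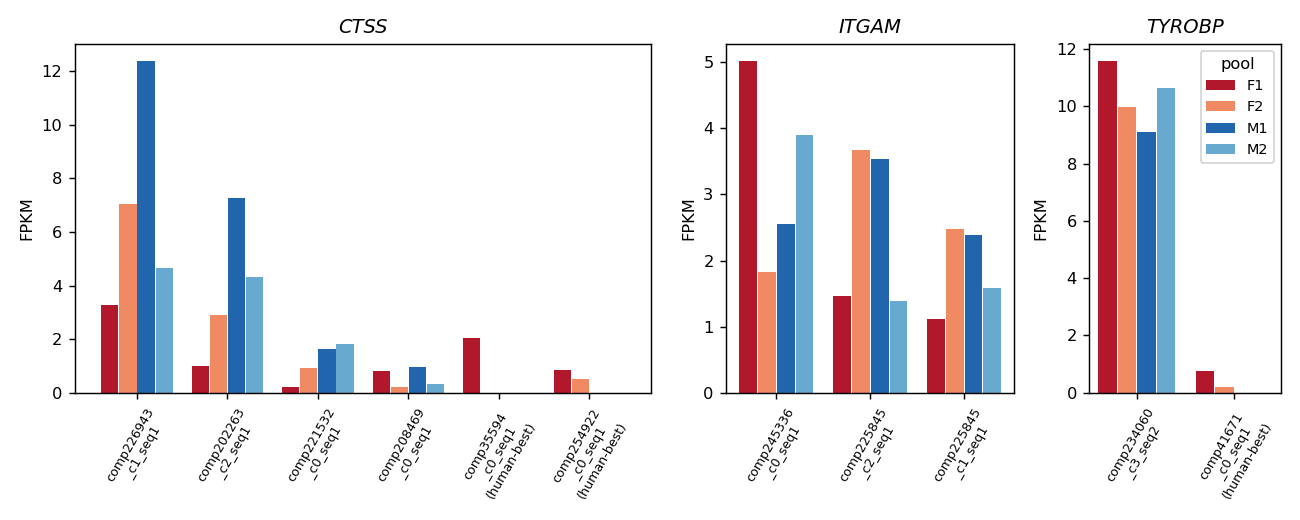
FPKM (linear axes from 0, a scale for each gene) of every unigene of *CTSS*, *ITGAM* and *TYROBP* in pools F1, F2, M1 and M2. The *ITGAM* unigene at the left is highest in F1 and the other pair highest in F2 and M1, and the unigenes marked human-best have bars in female pools only.

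A group of 4 member unigenes had a lower E-value with a human protein of Swiss-Prot than with the NR match, and all 4 were found in female pools only. Such unigenes are called human-best here. The NR matches in the table named no protein of the genus *Homo* or *Mus*. The *AIF1* unigene (comp387507_c0_seq1, 504 bp) had an E-value of 1e-98 with the human protein and 2e-60 with that of a python. It stood at 0.223 and 0.226 FPKM in F1 and F2 and was listed at 0 in M1 and M2. The short *TYROBP* unigene (comp41671_c0_seq1, 405 bp, 3e-53 with human and 4e-20 with turtle) stood at 0.746 and 0.191 FPKM in F1 and F2, and was listed at 0 in both male pools. A *CTSS* unigene (comp254922_c0_seq1, 809 bp, 2e-143 with human and 1e-105 with a bird, the cuckoo roller) stood at 0.841 and 0.528 FPKM in F1 and F2, and was listed at 0 in both male pools. The last (*CTSS*, comp35594_c0_seq1, 301 bp, 3e-44 with human and 2e-31 with turtle) was 2.05 FPKM in F1 and listed at 0 in the other 3 pools. The other 13 member unigenes were above 0 in every pool. Thus the only unigene named *AIF1* was of this kind.

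The 9 lists of other genes described below (immune, lysosomal and blood cell genes) held 52 human-best unigenes, of which 50 were above 0 in F1 and 43 in F2, against 3 in M1 and 7 in M2. Of the 52, 45 were found in female pools only, and these carried 32 gene symbols, at no more than 2.91 FPKM in a pool. The complement protease *C1S*, named after its values were seen, had 1 found in male pools only (0.250 and 0.496 FPKM in M1 and M2). Over the whole table, 1013 unigenes were human-best, and 34.6% of them were found in female pools only and 12.5% in male pools only. Of the other unigenes with a gene symbol that entered the sums, 3.92% were found in female pools only, and their share in male pools only was not computed. The human-best set was not limited to unigenes that entered the sums, so these shares are a description only. The organism the human-best unigenes came from was not tested. Without them the *CTSS* sum was 5.31 and 11.0 FPKM in female pools F1 and F2, against 22.2 and 11.2 FPKM in male pools M1 and M2. The sexes then no longer overlapped, though F2 and M2 nearly met, and the difference was -0.99 (SE 0.50, adjusted p = 0.542 in limma). *TYROBP* had a difference of 0.12 (SE 0.17) without them. The values of *CSF1R*, *P2RY12*, *ITGAM* and the C1q chains held no such unigene.

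Direct partners of the members were present, and limma called none of them. Of the 13 partner genes in the list, 12 had a unigene and 10 were tested (11 and 9 without human-best unigenes). Their median difference was -0.10 (-0.22 without human-best unigenes), none was over 2-fold apart, and none had an unadjusted p under 0.05. *CD74*, the invariant chain of class II molecules that cathepsin S cleaves in mammals, stood at 14.1 and 21.2 FPKM in female pools F1 and F2, against 41.6 and 21.8 FPKM in male pools M1 and M2. Like *CTSS*, it was highest in M1 and lowest in F1. Its difference was -0.78 (SE 0.39, adjusted p = 0.540 in limma). *SIRPB1*, a receptor of the signal-regulatory family that pairs with TYROBP, stood at 24.8 and 19.3 FPKM, against 24.1 and 28.0 FPKM, and close relatives in that family make its naming uncertain. *LCP1*, an actin-bundling protein of leukocytes, stood at 5.80 and 13.6 FPKM, against 9.90 and 9.15 FPKM. *TREM2*, a lipid-sensing receptor that signals through TYROBP, and *ITGB2*, the beta chain that pairs with ITGAM, are named after their values were seen. *TREM2* stood at 2.90 and 4.27 FPKM in female pools F1 and F2, against 4.02 and 4.84 FPKM in male pools M1 and M2. *ITGB2* stood at 2.68 and 2.91 FPKM, against 2.26 and 1.87 FPKM, with both female pools higher. Without its human-best unigenes, *ITGB2* was 1.54 and 1.87 FPKM, against 2.26 and 1.87 FPKM, and its difference was -0.22 (SE 0.27) in place of 0.37 (SE 0.24). The list had 2 genes with both female pools higher (*ITGB2* and the leukocyte integrin *ITGAL*, also named after its values were seen) and 1 with both male pools higher (*CD74*), where 18.5% and 23.3% of all features were so placed. Without human-best unigenes these counts were 0 and 1. No unigene carried the symbol of fractalkine (*CX3CL1*), the ligand of CX3CR1.

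Upstream of the members are the ligands of CSF1R. No unigene carried the symbol *IL34*, and *CSF1*, named after its values were seen, was below the filter at 0.410 and 0.985 FPKM in female pools F1 and F2, against 1.06 and 0.744 FPKM in male pools M1 and M2. Of the 12 genes of this list, which also held factors of myeloid fate, 9 were tested, with a median difference of 0.33 (0.19 without human-best unigenes). *MEF2C*, also active in neurons, stood at 22.5 and 18.5 FPKM in female pools F1 and F2, against 13.2 and 19.6 FPKM in male pools M1 and M2. *CEBPB*, which responds to inflammatory signals, was 4.19 and 30.6 FPKM in the female pools, against 8.49 and 2.07 FPKM in the male pools, with F2 far above the other pools, and was the gene of the list over 2-fold higher in females. *SALL1*, named after its values were seen, is a factor of microglial identity in mouse and stood at 5.997 and 4.21 FPKM, against 1.89 and 3.05 FPKM. In limma it alone of the list had an unadjusted p under 0.05 (adjusted p = 0.408).

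Of 31 listed genes of the complement cascade beyond C1q, its regulators and C1q-related proteins, 22 had a unigene and 16 were tested. The 16 included *C1QBP*, *C1QL1*, *C1QL2* and *C1QL3*, which are not part of the cascade itself, and limma called 0 of the 16. The median difference was 0.15. Both female pools were higher for 5 genes (*C7*, *CFP*, *MASP1*, *C3AR1* and *C1QBP*) and both male pools for 1 (*C1QL2*), and of these all but *C1QBP* are named after their values were seen. Over all features, 18.5% had both female and 23.3% both male pools higher. Among features with a gene symbol these shares were 23.2% and 21.1%, and the counts of the list are a description only. The most abundant were *C1QBP*, a mitochondrial protein that binds C1q, at 54.0 and 52.0 FPKM in female pools F1 and F2, against 50.9 and 48.8 FPKM in male pools M1 and M2, and the C1q-related synaptic proteins *C1QL1* (39.0 and 33.8 FPKM, against 29.6 and 45.4 FPKM) and *C1QL3* (23.2 and 13.5 FPKM, against 14.8 and 24.3 FPKM). limma called none of these. *C7*, a late component, stood at 2.38 and 1.60 FPKM, against 0.511 and 0.346 FPKM. It was the gene of the list over 2-fold apart and, in limma, with an unadjusted p under 0.05 (adjusted p = 0.236). *C3AR1*, the receptor for the C3a fragment, stood at 7.43 and 11.5 FPKM, against 6.72 and 4.004 FPKM. No unigene carried the symbol of the C1q-bound protease *C1R*.

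Of 36 other microglial and myeloid genes, all had a unigene (34 without human-best unigenes) and 27 were tested. Their median difference was 0.15 with all unigenes and 0.04 without human-best unigenes. Both female pools were higher for 5 genes, and for 2 without human-best unigenes, and both male pools were higher for 3 in either case. Of all features, 18.5% had both female and 23.3% both male pools higher. Among the most abundant were *NLRP3*, an inflammasome sensor from a large gene family, so that its naming is uncertain, at 35.7 and 37.2 FPKM in female pools F1 and F2, against 47.7 and 31.5 FPKM in male pools M1 and M2, and *GAS6*, a ligand for uptake of dying cells, at 9.003 and 40.3 FPKM, against 15.9 and 22.01 FPKM. F2 was the highest pool for *GAS6*. The gene over 2-fold higher in females was the flagellin receptor *TLR5*, named after its values were seen, at 2.10 and 4.93 FPKM, against 2.39 and 0.594 FPKM. *PTPRC* (CD45, a phosphatase of all white blood cells, named after its values were seen) stood at 2.12 and 3.49 FPKM, against 1.74 and 1.18 FPKM. Without human-best unigenes *PTPRC* was 0.905 and 2.27 FPKM, against 1.74 and 1.18 FPKM, and its difference was 0.02 (SE 0.45) in place of 0.73 (SE 0.35).

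Border and tissue macrophage genes, which mark macrophages of the meninges and vessels, were tested for 7 of 14, with a median difference of -0.16. *HMOX1*, which degrades heme, stood at 6.08 and 6.64 FPKM in female pools F1 and F2, against 6.92 and 7.46 FPKM in male pools M1 and M2. The mannose receptor *MRC1* stood at 1.60 and 2.13 FPKM, against 4.16 and 1.74 FPKM. Lysozyme (*LYZ*), at 7.12 and 5.60 FPKM, against 4.26 and 3.10 FPKM, was the gene of the list with an unadjusted p under 0.05 in limma (adjusted p = 0.406). Cathepsins and other lysosomal genes were far more abundant than the members and are used by most cell types. Of 23, 20 were tested, with a median difference of 0.03. *PSAP* (saposin precursor) was 204 and 215 FPKM, against 229 and 213 FPKM, *LAMP1* was 140 and 115 FPKM, against 126 and 108 FPKM, and *CTSD* was 115 and 99.5 FPKM, against 122 and 106 FPKM. The pair with an unadjusted p under 0.05 was higher in males and named after its values were seen. The lysosomal receptor *SCARB2* stood at 8.56 and 9.33 FPKM, against 13.9 and 14.2 FPKM (adjusted p = 0.203 in limma). The collagen-cleaving protease *CTSK* stood at 1.01 and 2.94 FPKM, against 5.65 and 9.51 FPKM (adjusted p = 0.332 in limma).

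**Figure D4:**
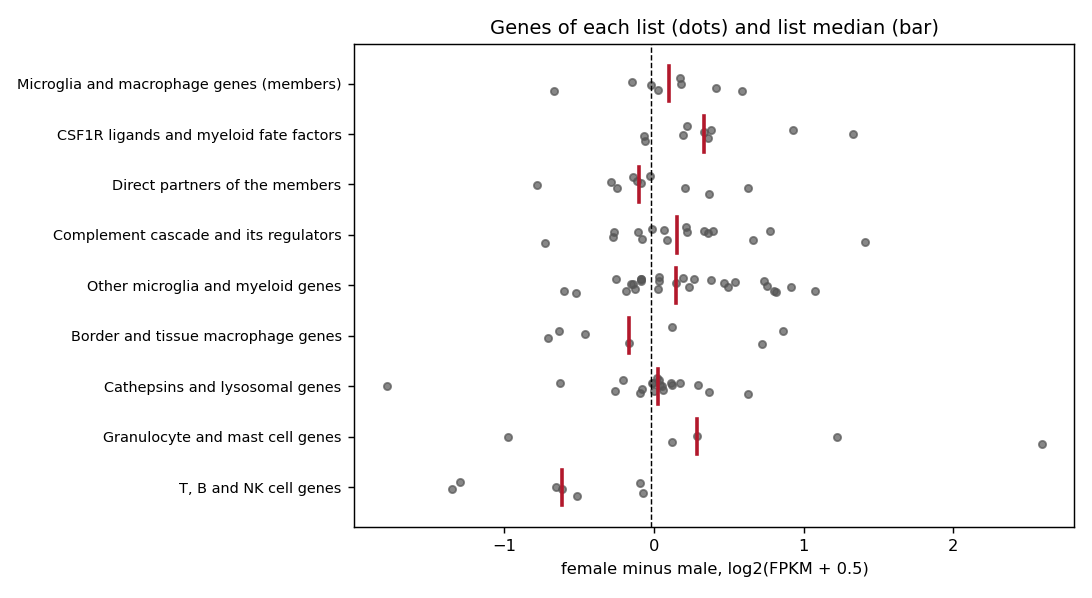
Female minus male difference of log2(FPKM + 0.5) of every tested gene (dots) in the member list and 8 other lists, with list medians as red bars and the median of all 49512 features (-0.02) as a dashed line. List medians run from -0.61 for T, B and NK cell genes to 0.33 for CSF1R ligands and myeloid fate factors, and no gene passed the adjusted threshold.

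Cells of the blood carry some of the same genes, and their markers varied between the pools. Red blood cell and thrombocyte genes other than *HBB* summed to 32.7 FPKM in F1 and 125 FPKM in F2, against 95.6 FPKM in M1 and 32.7 FPKM in M2, with 10 of 19 genes tested and *HBB* included among these. *HBB* was left out of this sum because its unigene was nearly confined to the female pools (256 and 131 FPKM, against 1.18 and 2.19 FPKM). With *HBB* the list summed to 289 and 257 FPKM, against 96.8 and 34.9 FPKM, and F1 was then the highest pool. *HBB* alone of the list had an unadjusted p under 0.05 in limma (adjusted p = 0.126). It was over 2-fold higher in females. *HBA2*, named after its values were seen, was over 2-fold higher in males (0.248 and 0.903 FPKM, against 1.90 and 1.65 FPKM). Over all features 3.33% and 6.67% were so placed. *ALAS2*, the heme enzyme of red cells, stood at 13.7 and 61.2 FPKM in female pools F1 and F2, against 32.0 and 9.59 FPKM in male pools M1 and M2, and the anion exchanger *SLC4A1* at 6.64 and 23.6 FPKM, against 31.0 and 9.57 FPKM. Granulocyte and mast cell genes without human-best unigenes summed to 3.74 and 20.8 FPKM, against 11.9 and 6.36 FPKM, with 3 of 14 tested. With human-best unigenes 5 were tested, and *S100A9* (2.91 and 2.16 FPKM, listed at 0 in both male pools) and *CSF3R* (1.28 and 2.33 FPKM, against 0.540 and 0.391 FPKM), both named after their values were seen, had an unadjusted p under 0.05 (adjusted p = 0.126 and 0.345 in limma). Neither of this pair was among the genes tested without human-best unigenes. The enzymes *MMP9* (1.39 and 10.3 FPKM, against 5.14 and 1.92 FPKM) and *MPO* (0.706 and 6.12 FPKM, against 2.37 and 1.84 FPKM) of granulocytes were again highest in F2 and M1, and the mast cell protease *CPA3* stood at 0.255 and 1.94 FPKM, against 2.63 and 1.78 FPKM. *C1QB*, the *ITGAM* sum and its comp225845 unigenes had the same pools as their highest. So did the main unigene of *CTSS* and its full sum, though in the sum F2 (11.6 FPKM) was close to M2 (11.2 FPKM). Without human-best unigenes, as in the granulocyte sums, *CTSS* was highest in M1 and M2 (22.2 and 11.2 FPKM), with F2 at 11.0 FPKM. *CSF1R*, *C1QA*, *C1QC*, *P2RY12* and *TYROBP* had F1 as their highest pool. The part of blood cells in the values of *ITGAM*, *CTSS* and *C1QB* was not tested.

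**Figure D5:**
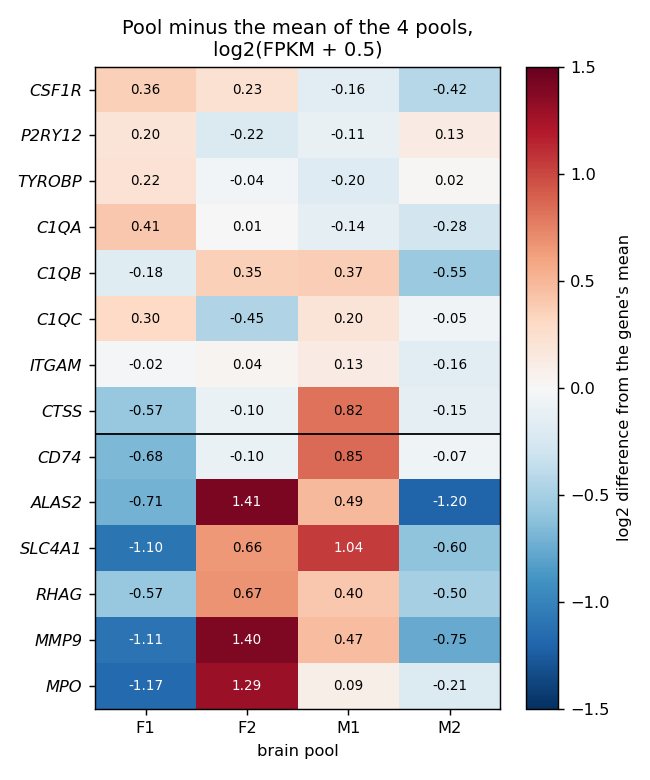
Each pool's log2(FPKM + 0.5) minus the mean of the 4 pools, for the 8 members (above the line) and 6 other genes (below it), where *RHAG*, a red cell membrane protein, was chosen after its values were seen. *ALAS2*, *SLC4A1*, *RHAG*, *MMP9* and *MPO* are above their mean in F2 and M1 and below it in F1 and M2, and of the members *C1QB* (0.35 and 0.37 in F2 and M1) and *ITGAM* (0.04 and 0.13) share these signs. Other genes of the same blood cell lists are not drawn. Of these, *HBB*, *S100A9* and *CSF3R* (the last pair with human-best unigenes) were highest in F1 and F2, and *HBA2* in M1 and M2. *CPA3* had the order M1, F2, M2, F1 from high to low. The other tested red blood cell and thrombocyte genes were highest in F2 and M1.

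Lymphocyte genes were low. Of 24, 18 had a unigene and 7 were tested, and they summed to 10.6 and 13.6 FPKM in F1 and F2 without human-best unigenes, against 25.1 and 20.0 FPKM in M1 and M2. Their median difference was -0.61. The T cell adhesion molecule *CD2* stood at 2.50 and 2.15 FPKM, against 8.68 and 5.12 FPKM (adjusted p = 0.243 in limma). *CD3G* of the T cell receptor complex, named after its values were seen, stood at 0.0838 and 0.252 FPKM, against 1.09 and 1.16 FPKM (adjusted p = 0.245 in limma), and both had an unadjusted p under 0.05. The protease *GZMA* stood at 1.01 and 4.30 FPKM, against 3.80 and 3.44 FPKM, and the B cell factor *PAX5*, also used in the developing midbrain and hindbrain, at 2.17 and 1.28 FPKM, against 2.21 and 1.45 FPKM. *CTSS* and *CD74* are expressed by B cells as well as by macrophages. The part of lymphocytes in their values was not tested. Genes of brain cells showed the labelled tissue. *SNAP25* of synapses was 958 and 720 FPKM in the female pools, against 911 and 850 FPKM in the male pools, and *MBP* of myelin was 905 and 811 FPKM, against 1152 and 857 FPKM.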

How the data were processed

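Brain RNA of 4 pools (F1, F2, M1, M2) was sequenced by the authors as polyadenylated RNA on the Illumina platform. The deposited FPKM values were made by the authors. The study's methods name NGS QC Toolkit for read filtering, Trinity and TGICL for assembly and Bowtie2 for alignment. The submitters' processing notes name cutadapt, FastQC, Salmon and edgeR instead. Which of these made the values was not settled, and a mismatch of reads to near-identical unigenes can move FPKM between them. The deposited table held 197684 unigenes after 1 line without values was left out. E-values (BLASTx, other units) and lengths in bp were used as deposited.

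Symbols were read from the Swiss-Prot description in any case, without a final -a or -b. FPKM were summed per symbol over unigenes that had no *Gallus* or *Meleagris* NR match (5596 did) and were not mouse-best, i.e., a mouse Swiss-Prot match with no or a weaker NR match (1010 were). Human-best unigenes were defined likewise, after seeing the data. Unigenes outside the sums stayed as features. limma 3.58.1 (R 4.3.3) was run on log2(FPKM + 0.5) of the deposited values, with sex as the only term, eBayes with a trend, 2 residual degrees of freedom and a threshold of adjusted p under 0.05. DEGseq, which the study used, works on reads. An exact permutation test of 2 against 2 pools cannot give a p under 0.333 and was not used. The fit was tested on simulated data. Replicates are pools of different frogs.

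The members and gene lists were chosen with earlier results of these data known. All members were named, and of each other list the 3 most abundant genes, plus any called. Some of these are not reported here. Fold counts carry no test. Figures were drawn with matplotlib 3.10.9 in Python 3.11.15. No sequences were printed and no genome was used here. Alternatives are given in the closing section.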

Additional observations from a re-analysis of the deposited data

How the results depend on the processing

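In the 20 alternatives run at gene level, no member passed the adjusted threshold (smallest adjusted p = 0.297, *CSF1R*), and 148 of 157 alternative values of members kept their direction. *CSF1R*, *C1QA* and *TYROBP* stayed higher in females and *CTSS* higher in males in each alternative that gave a value. The direction of *P2RY12* turned with quantile normalization (0.032) and that of *ITGAM* with the most abundant unigene alone (-0.033). Leaving out each pool in turn, with a lone pool taken to vary like those of the other sex, gave -0.29 to 0.64 for *C1QB*, -0.52 to 0.23 for *C1QC*, -0.23 to 0.19 for *P2RY12* and -0.11 to 0.17 for *ITGAM*, so that their direction rests on single pools (F2 for all 4, and M2 also for *C1QB*, *P2RY12* and *ITGAM*). The number of members with all female pools higher was then 2 to 5, and that with all male pools higher 0 to 3. Of all features then tested, 31.3% to 35.5% and 32.3% to 39.6% were so placed. The number of members over 2-fold higher in males was 0 to 1 (*CTSS* without M2), against 2.79% to 9.61% of all features then tested. With amphibian-matched unigenes only, 1 member (*CSF1R*) had both female and 1 (*CTSS*) both male pools higher, since *C1QA* then had no unigene. Without human-best unigenes, a choice made after seeing the data, 2 had both female and 1 (*CTSS*) both male pools higher. In the main fit 18.5% and 23.3% of all features were so placed, and the shares under these alternatives are not given here. Without a trend limma called 1084 features at gene level and 1251 at unigene level, in place of 0 and 0, and 0 members. Same-numbered pools had a correlation of -0.108 in their deviations across features. The labels do not say whether same-numbered pools were handled together, and this value cannot settle it. With the replicate block limma called 0 features and 0 members, and the crossed replicate block, added after seeing the data, also called 0 and 0. The cause of these shifts was not tested. With the trend and all pools, the smallest adjusted p of any feature was 0.126 at gene level and 0.110 at unigene level, and values under 1 FPKM have an unknown number of reads behind them.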
